A study of Mus musculus with 8 samples.

Results

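The matrix metalloproteases (Mmp), the secreted metalloproteases with thrombospondin repeats (Adamts) and the tissue inhibitors of metalloproteases (Timp) are described here in nuclei of mouse visceral white adipose tissue. The members were all genes whose symbols are Mmp, Adamts or Timp followed by a number (with an optional a or b for Mmp), which gave 46 of the 56749 features in the count tables: 23 Mmp, 19 Adamts and 4 Timp genes. RNA of single nuclei was counted with unique molecular identifiers (UMIs) in 8 libraries, 1 a mouse, in 4 groups of 2 mice. All mice carried an insertion on 1 allele of p21 (Cdkn1a), the other allele being wild type. The first group was p21+/mCherry on standard diet (mCherry SD, libraries rep144 and rep146). The others were fed a high fat diet: p21+/mCherry (mCherry HFD, rep128 and rep129), p21+/mCherry-Tert (Tert HFD, rep134 and rep136) and p21+/mCherry-TertCi (TertCi HFD, rep138 and rep140). Per the series' design text, the p21 promoter drives Tert, the catalytic subunit of telomerase, or TertCi, which the labels do not spell out. The mice's age and the length of the diet are not given in the sources used here, and the design text names stromal vascular fraction and p21+/- mice where the sample labels name whole tissue and p21+/mCherry.

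Mmp and Adamts proteases cut proteins of the extracellular matrix and shed or release signals bound to it. Most are made as inactive precursors, and Timp proteins block their active site. In adipose tissue the matrix around adipocytes is made largely by fibroblast-like progenitors, and it is remodelled as the fat depot grows and as macrophages enter it.

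Several Mmp genes lie side by side on mouse chromosome 9, and 3 of these neighbours had their UMIs in different cells here. Mmp12 UMIs were found mainly in macrophages, and the level of Mmp3 was highest in progenitors among the classes compared below. Most Mmp7 UMIs came from 1 small cluster led by Dcdc2a, Adcy8 and Pkhd1. RefSeq promoter windows of all 3 genes are shown to let these neighbours be compared (build GRCm38.p6, all on the plus strand). They span 250 bases before to 50 after a start site. RefSeq holds a second start for Mmp12 and for Mmp7, whose windows hold no match of the motif and are not shown. Capitals mark the AP-1 motif TGAGTCA, the site bound by Fos and Jun dimers.
Mmp12, chr9:7347124-7347423: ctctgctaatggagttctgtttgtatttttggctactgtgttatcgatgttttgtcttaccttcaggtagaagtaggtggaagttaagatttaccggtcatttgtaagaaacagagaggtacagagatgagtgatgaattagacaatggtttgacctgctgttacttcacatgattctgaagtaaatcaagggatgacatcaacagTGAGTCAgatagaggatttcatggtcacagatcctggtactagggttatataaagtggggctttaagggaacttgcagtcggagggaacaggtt
Mmp3, chr9:7445572-7445871: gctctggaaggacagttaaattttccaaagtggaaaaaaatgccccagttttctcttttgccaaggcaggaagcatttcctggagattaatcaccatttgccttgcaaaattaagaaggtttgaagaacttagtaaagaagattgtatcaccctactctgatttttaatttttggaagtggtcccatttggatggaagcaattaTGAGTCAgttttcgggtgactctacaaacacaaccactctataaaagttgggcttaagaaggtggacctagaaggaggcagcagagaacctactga
Mmp7, chr9:7691840-7692139: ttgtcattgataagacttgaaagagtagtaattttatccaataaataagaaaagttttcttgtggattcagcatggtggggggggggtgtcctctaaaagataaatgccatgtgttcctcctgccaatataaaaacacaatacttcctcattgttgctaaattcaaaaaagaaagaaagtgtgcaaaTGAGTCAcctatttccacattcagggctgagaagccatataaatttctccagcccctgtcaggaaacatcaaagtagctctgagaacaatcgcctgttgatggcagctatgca

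The motif was searched as TGAGTCA and TGACTCA, which are each other's reverse complement, so both strands were read. In the windows shown it begins 44 bases before the start site in Mmp12, 46 before it in Mmp3 and 63 before it in Mmp7. Of the 46 members, 32 had a window in the RefSeq table, and 7 of these (21.9%) held the motif in at least 1 window, against 5.95% of the 27025 genes in that table counted in the same way. All 7 lie in the chromosome 9 group: Mmp1a, Mmp1b, Mmp3, Mmp7, Mmp10, Mmp12 and Mmp13. Mmp8, Mmp20 and Mmp27 of the same group had a window without the motif. The 21.9% thus comes from 1 group of neighbouring genes and does not describe the members as a whole. A match is only a description of these letters in this window.

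The libraries held 23378488 to 139749876 UMIs, and 30209 nuclei were kept after filters and doublet removal, 1978 to 7433 a library, with library medians of 1684 to 7135 UMIs per nucleus. Pairs of libraries shared 0 to 16 cell barcodes. Clustering was done with the members left out and gave 35 clusters, of which 17 met a fixed marker rule: 4 were progenitor-like, 4 adipocyte-like, 6 macrophage-like, 1 endothelial-like and 2 epithelial-like, the last only in mCherry HFD rep128. The other 18 clusters, with 10221 nuclei, carried markers of more than 1 lineage; 1 of them led by mesothelial genes and 1 led by mural genes (cells of the vessel wall) are described under those names. Over all barcodes of a library, those outside nuclei included, mCherry gave 0 to 17 UMIs. Tert gave 99 to 457 in mCherry HFD, 47 to 261 in Tert HFD and 95 to 218 in TertCi HFD, so these counts do not tell the genotypes apart. Levels are given as UMIs of the gene per 1000000 UMIs of the class in that library (CPM), and they are not compared between genes. Free RNA, the RNA found outside nuclei, was read as CPM in barcodes of at most 100 UMIs of the same library and is given beside the levels it touches.

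UMIs of 45 members were found in nuclei, with none for Mmp1a. At least 200 UMIs were found for 33 members, 12 Mmp, 17 Adamts and all 4 Timp. The 12 sparse members were Mmp1b, Mmp7, Mmp8, Mmp10, Mmp13, Mmp17, Mmp20, Mmp21, Mmp24, Mmp25, Adamts8 and Adamts13, with 4 to 170 UMIs each over all nuclei. Of the 33, 18 (54.5%) had their highest mean level in progenitor-like nuclei, where 13.9% of all 17949 genes with as many UMIs had theirs. The rest were highest in endothelial-like nuclei (Adamts1, Adamts9, Adamts17, Adamts18 and Timp4), the mural-led cluster (Adamts4, Adamts7, Mmp15 and Timp3), the mesothelial-led cluster (Adamts3, Adamts20 and Mmp16), macrophage-like nuclei (Mmp9 and Mmp12) and adipocyte-like nuclei (Mmp28). These rankings compare only the classes named in this paragraph. They rest on means, and some did not hold in every library. Timp1 and Timp4 were highest in their class in 4 libraries, and Timp2 and Mmp19 in 5. Some members had a higher pooled level in a cluster outside these classes, such as Adamts20 (296 CPM in cluster 33) and Mmp16 (91.4 CPM in cluster 26). The shares describe the levels and were not tested.

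**Figure D1:**
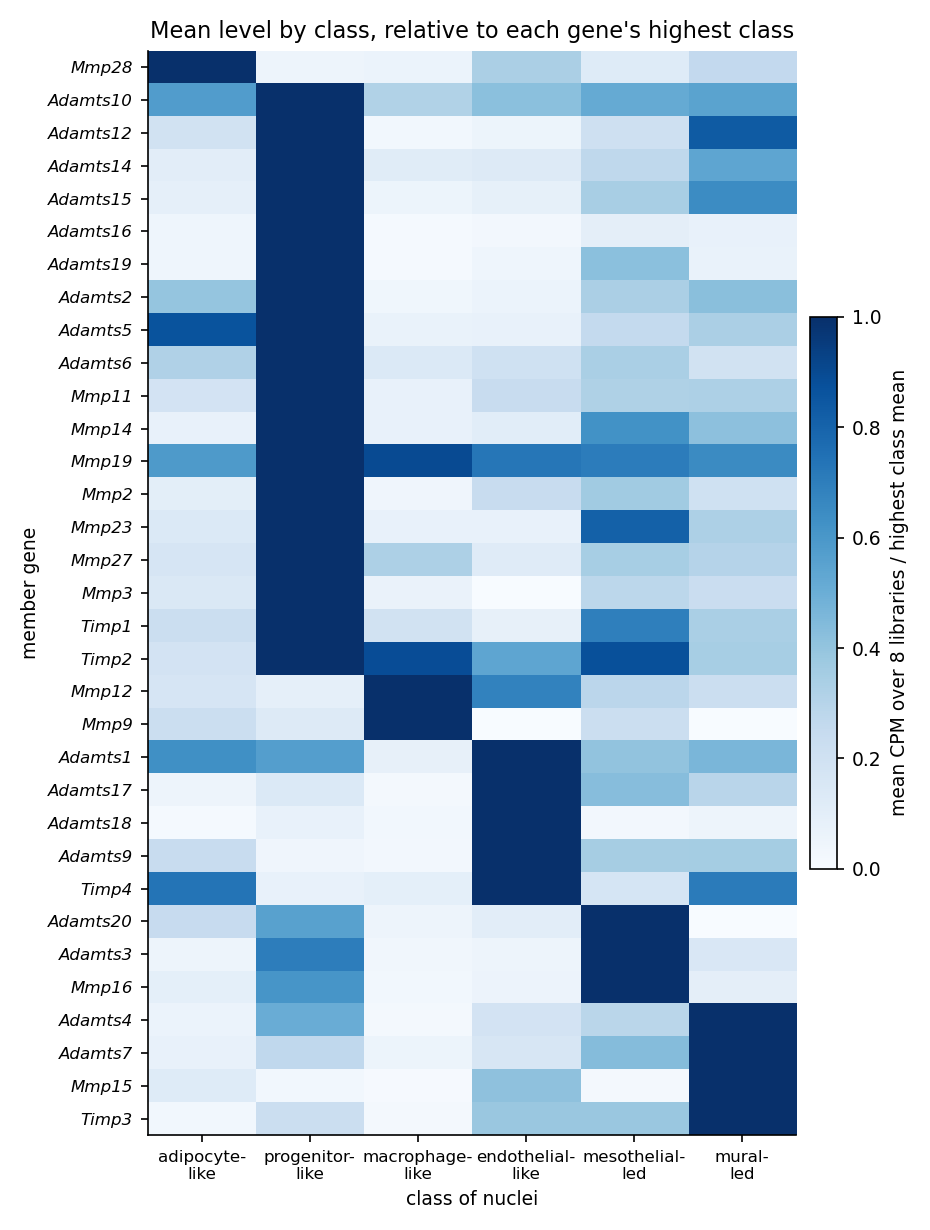
Level of the 33 members with at least 200 UMIs (rows) in 6 classes of nuclei (columns), as the mean CPM over the libraries divided by that of the gene's highest class, so that each row reaches 1.0 once. Of the rows, 18 are darkest in progenitor-like nuclei, while Mmp12 and Mmp9 are darkest in macrophage-like, Mmp28 in adipocyte-like and Adamts9 in endothelial-like nuclei.

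The level in nuclei was set against free RNA library by library. In progenitor-like nuclei 12 of the 33 members were above free RNA in all 8 libraries. They were the aggrecanase Adamts5, Adamts15 (also a cutter of large proteoglycans), the procollagen N-proteases Adamts2, Adamts3 and Adamts14, Adamts6 and Adamts10 (both linked to fibrillin), Adamts12, Adamts16 and Adamts19, the gelatinase Mmp2 and the membrane-bound Mmp14, which activates the Mmp2 precursor. In endothelial-like nuclei this held for Adamts9, Adamts17 and the inhibitor Timp3, in adipocyte-like nuclei for Adamts5 and Mmp28, and in macrophage-like nuclei for Mmp12 alone. In no library was the level above free RNA for 4 members in progenitor-like, 15 in adipocyte-like, 14 in endothelial-like and 26 in macrophage-like nuclei. Levels above free RNA were not counted over all genes, so these counts do not set the members apart from other genes. The part of free RNA in differences between groups was not tested, and its values are given beside the calls it touches.

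Mmp12, the macrophage elastase, was the member with the smallest adjusted p in macrophage-like nuclei after the change of diet. It stood at 35.0 and 35.7 CPM in mCherry SD, 868 and 637 in mCherry HFD, 344 and 368 in Tert HFD, and 288 and 292 in TertCi HFD. All HFD libraries were above both SD libraries, and both mCherry HFD libraries were above all 4 Tert HFD and TertCi HFD libraries. By the quasi-likelihood test of edgeR, with p-values adjusted over all genes after Benjamini and Hochberg, Mmp12 rose by 4.26 ± 0.23 on the log2 scale (SE, n = 2 mice a group) from SD to HFD, with an adjusted p of 1.57e-07. It was lower in Tert HFD than in mCherry HFD, by -0.93 ± 0.17 with an adjusted p of 0.00221, and lower in TertCi HFD, by -1.22 ± 0.17 with an adjusted p of 0.000255. Free RNA held Mmp12 at 10.0 and 17.1 CPM in mCherry SD, 563 and 580 in mCherry HFD, 159 and 190 in Tert HFD, and 86.1 and 94.1 in TertCi HFD, so it followed the same order as the nuclei and was below them in each library.

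**Figure D2:**
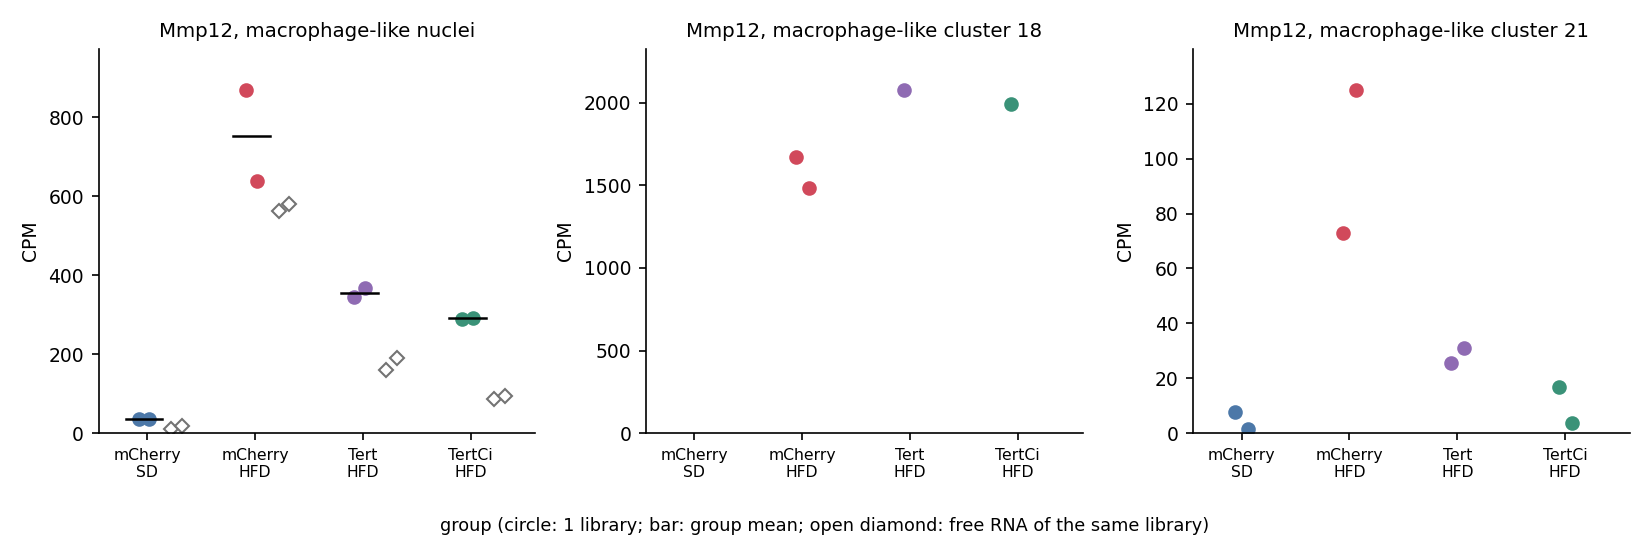
Mmp12 CPM by group in macrophage-like nuclei and in 2 of their clusters, with 1 filled point a library. Open diamonds for free RNA of the same libraries and bars for the group mean are drawn for macrophage-like nuclei only. Libraries with under 20 nuclei of a cluster have no point for it. Both mCherry HFD points of macrophage-like nuclei, 868 and 637 CPM, lie above every other library, cluster 18 points lie between 1482 and 2076 CPM and cluster 21 points at or below 125 CPM.

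The macrophage-like class was not made of the same clusters in every group. Cluster 18, led by Fat3, Gpnmb and Efr3b, held 44.6% of all Mmp12 UMIs (20931 of 46910). It held 36.7% and 27.1% of the macrophage-like nuclei of the mCherry HFD libraries, 10.3% and 1.53% in Tert HFD, 5.36% and 6.25% in TertCi HFD and 0 of 264 in mCherry SD, which allows a share of up to 1.14%. In the libraries with at least 20 nuclei of cluster 18, Mmp12 was 1671 and 1482 CPM in mCherry HFD, 2076 in Tert HFD rep134 and 1996 in TertCi HFD rep138, with no replicate for the last 2. Cluster 21, led by F13a1, Ednrb and Cd163, held 76.9% of the macrophage-like nuclei of mCherry SD, 1.24% of mCherry HFD, 44.6% of Tert HFD and 53.3% of TertCi HFD. There Mmp12 was 7.83 and 1.64 CPM in mCherry SD, 73.1 and 125 in mCherry HFD, 25.4 and 30.9 in Tert HFD, and 16.8 and 3.64 in TertCi HFD, below free RNA in each library. Cluster 16, led by Cd226 and the monocyte receptor Ccr2, had 107 and 200 CPM in mCherry SD, 526 and 643 in mCherry HFD, 294 and 470 in Tert HFD, and 468 and 405 in TertCi HFD, above free RNA in each library but mCherry HFD rep128.

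Macrophage-like nuclei were clustered again, without the members, to place Mmp12 among macrophage states. A subcluster of 1928 nuclei in which 8 of 8 markers of lipid-associated macrophages (Trem2, Cd9, Gpnmb and others) were raised came almost all from mCherry HFD, with 1490 and 417 nuclei, and had Mmp12 at 1585 and 1385 CPM there, above the 563 and 580 of free RNA. The other lipid-associated subcluster, of 556 nuclei with 368 and 77 from mCherry HFD, was led by cell-division genes such as Top2a and Mki67 and had 4 of those 8 and 5 cycling markers raised. Mmp12 was 638 and 421 CPM in its mCherry HFD nuclei, above free RNA in rep128 and below it in rep129. The 2 perivascular subclusters, with 8 of 8 markers such as Lyve1 and Cd163 raised in each, had 324 and 148 CPM in mCherry HFD in the one and 46.7 and 29.9 in Tert HFD in the other, below the free RNA of those libraries (159 and 190 CPM in Tert HFD). A subcluster of 1022 nuclei had 4 of the 8 lipid-associated markers raised but stayed unnamed, since the mean log2 rise over all 8, 0.86, was under the 1.0 that the naming rule asks for. Its leading genes include the growth hormone receptor Ghr, and it had Mmp12 at 1288 and 579 CPM in Tert HFD and 1080 and 1061 in TertCi HFD, above free RNA. A subcluster of 1699 nuclei, with 1058 and 597 of them from mCherry HFD, stayed unnamed by the same rule, with 3 of the 8 raised and a mean log2 rise over all 8 of 0.91, and had Mmp12 at 274 and 344 CPM in mCherry HFD, below free RNA. Over all macrophage-like nuclei the summed level of the 8 lipid-associated markers was 283 and 372 CPM in mCherry SD, 4507 and 3977 in mCherry HFD, 1521 and 1935 in Tert HFD, and 1200 and 1306 in TertCi HFD, the same order of groups as for Mmp12. The part of these shifts in cell state in the change of Mmp12 was not tested.

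Mmp9, the second gelatinase, had its highest level in macrophage-like nuclei too but moved the other way with diet. Its level was 8.74 and 7.64 CPM in mCherry SD, 0.403 and 0.222 in mCherry HFD, 6.18 and 2.06 in Tert HFD, and 3.78 and 0 in TertCi HFD. These values rest on 9, 12, 42 and 18 UMIs in the 4 groups. Mmp9 fell by 4.53 ± 1.05 on the log2 scale with HFD (adjusted p = 0.00801), and was higher than in mCherry HFD by 3.74 ± 0.78 in Tert HFD (adjusted p = 0.00516) and 2.95 ± 0.85 in TertCi HFD (adjusted p = 0.0215). The CPM of TertCi HFD and mCherry HFD overlapped, and the TertCi call rests on rep138: without it the log2 difference was -4.17. Free RNA held Mmp9 at 0.938 and 3.29 CPM in mCherry SD, 1.53 and 1.499 in mCherry HFD, 4.67 and 2.00 in Tert HFD, and 0.531 and 0 in TertCi HFD, so in Tert HFD rep136 the nuclei were barely above it and in mCherry HFD they were below it. Within cluster 21 Mmp9 was 11.7 and 9.82 CPM in mCherry SD, 6.64 and 0 in mCherry HFD, 9.88 and 4.11 in Tert HFD, and 6.87 and 0 in TertCi HFD. There the mCherry HFD libraries, with only 21 and 42 nuclei of this cluster, overlap those of both Tert HFD and TertCi HFD. Cluster 21 held 65 Mmp9 UMIs over all libraries, so this overlap rests on few UMIs and does not show that the groups were alike.

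Of the 20 members tested in macrophage-like nuclei, 4 were called for diet, 1 higher and 3 lower, where 21.5% of all 13569 genes were called, 11.9% higher and 9.69% lower. Against mCherry HFD, 7 were called in Tert HFD (4 higher, 3 lower) beside 19% of all genes (7.54% higher, 11.5% lower). In TertCi HFD 7 were called (4 higher, 3 lower) beside 25.7% (10.5% higher, 15.2% lower). The members' median log2 difference was -0.36 for diet beside 0.10 over all genes, 0.45 for Tert beside -0.04, and 0.08 for TertCi beside -0.08. Apart from Mmp12 and Mmp9, the called members were below free RNA in both libraries of the group in which they were higher. They were Adamts9 and Timp4 (both lower with HFD), Adamts9, Adamts12 and Mmp28 (higher in both Tert HFD and TertCi HFD) and Adamts14 and Timp1 (lower in both). Adamts9, for example, was 8.74 and 17.8 CPM in mCherry SD, 3.44 and 6.44 in mCherry HFD, 10.3 and 13.7 in Tert HFD, and 16.2 and 15.8 in TertCi HFD, while free RNA held it at 75.4 and 120 CPM in mCherry SD and 55.5 and 38.5 in mCherry HFD. Markers of adipocytes, the class where Mmp28 is highest, were likewise higher in macrophage-like nuclei of Tert HFD and TertCi HFD than of mCherry HFD. The 8 markers summed to 358 and 636 CPM in mCherry SD, 55.3 and 104 in mCherry HFD, 191 and 262 in Tert HFD, and 288 and 210 in TertCi HFD. Their part in the calls was not tested. Without mCherry HFD rep128 the calls for diet, Tert and TertCi were 2, 1 and 2, beside 12.8%, 6.73% and 11.1% of all genes. Mmp12 kept its 3 calls in all 8 fits with 1 library left out, and each of the other macrophage calls was lost in at least 1.

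Timp2, the inhibitor that also helps Mmp14 activate Mmp2, was not called in macrophage-like nuclei in any of these comparisons, with 213 and 247 CPM in mCherry SD, 175 and 195 in mCherry HFD, 225 and 153 in Tert HFD, and 182 and 155 in TertCi HFD. Mmp19, a protease of basement membrane proteins, was 14.6 and 11.5 CPM in mCherry SD, 33.7 and 28.0 in mCherry HFD, 20.9 and 18.6 in Tert HFD, and 12.8 and 39.1 in TertCi HFD, and was not called either. TertCi HFD rep140 was the highest library for Mmp19 and rep138 among the lowest.

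In progenitor-like nuclei, the fibroblast-like cells that can form adipocytes, 4 members rose with HFD and none fell: the stromelysin Mmp11, the gelatinase Mmp2, the aggrecanase Adamts4 and the inhibitor Timp1. These are 4 of 26 tested, where 11.1% of all 12022 genes were called (7.29% higher, 3.85% lower). Mmp2 was 32.3 and 23.8 CPM in mCherry SD, 83.0 and 70.3 in mCherry HFD, 39.0 and 34.0 in Tert HFD, and 31.3 and 26.5 in TertCi HFD. Both mCherry HFD libraries lay above the other 6. Mmp2 rose by 1.29 ± 0.25 on the log2 scale with HFD (adjusted p = 0.00698) and was lower than in mCherry HFD by -0.92 ± 0.21 in Tert HFD (adjusted p = 0.0159) and by -1.20 ± 0.21 in TertCi HFD (adjusted p = 0.00226). Free RNA held Mmp2 at 9.38 and 12.5 CPM in mCherry SD, 36.2 and 42.3 in mCherry HFD, 14.9 and 8.88 in Tert HFD, and 10.6 and 8.71 in TertCi HFD, below the nuclei in each library.

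Mmp11, a stromelysin activated inside the cell by furin, was 1.54 and 4.57 CPM in mCherry SD, 45.9 and 33.9 in mCherry HFD, 18.3 and 7.45 in Tert HFD, and 14.6 and 17.5 in TertCi HFD. It rose by 3.37 ± 0.52 on the log2 scale with HFD (adjusted p = 0.00228), and was lower in Tert HFD by -1.36 ± 0.33 (adjusted p = 0.0195) and in TertCi HFD by -1.17 ± 0.32 (adjusted p = 0.0226). Its 4 Tert HFD and TertCi HFD libraries lay between those of mCherry SD and mCherry HFD. Without Tert HFD rep134 the Mmp11 difference in Tert HFD was -2.19, still called. Free RNA of mCherry HFD held Mmp11 at 15.6 and 15.2 CPM, below the nuclei. Adamts4, which cuts aggrecan and versican, was 0 and 0.914 CPM in mCherry SD, 10.4 and 13.6 in mCherry HFD, 4.42 and 4.14 in Tert HFD, and 2.02 and 2.82 in TertCi HFD. These rest on 1 UMI in mCherry SD and 114 in mCherry HFD, a ratio of pooled levels of 19.03 with an exact 95% counting interval of 3.35 to 758. Adamts4 was called for HFD (fitted log2 difference 4.06 ± 0.89, adjusted p = 0.0122) and was lower in TertCi HFD (-2.13 ± 0.47, adjusted p = 0.00761), while the difference from Tert HFD was not called. The diet call was lost without either mCherry SD library or mCherry HFD rep128, and the fitted value was 8.22 without mCherry SD rep146. Free RNA of mCherry HFD held Adamts4 at 4.29 and 4.00 CPM, below the nuclei.

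Timp1, the inhibitor of most soluble Mmp proteins, was 4.62 and 2.74 CPM in mCherry SD, 28.9 and 27.1 in mCherry HFD, 3.65 and 3.31 in Tert HFD, and 1.42 and 2.25 in TertCi HFD. All 6 other libraries were below 5 CPM. Timp1 rose by 2.81 ± 0.47 on the log2 scale with HFD (adjusted p = 0.0033), and was lower by -2.85 ± 0.36 in Tert HFD (adjusted p = 0.00116) and by -3.85 ± 0.40 in TertCi HFD (adjusted p = 0.000194). Free RNA of the mCherry HFD libraries held Timp1 at 22.7 and 50.1 CPM, so in rep129 the nuclei were below it. The rest of the Tert HFD and TertCi HFD calls were lower Mmp19 and Adamts1 in both, lower Mmp3, Mmp12 and Mmp23 in TertCi HFD, higher Adamts12 in both, and higher Mmp28 and Timp3 in TertCi HFD. In all, 6 of 26 were called in Tert HFD (5 lower, 1 higher) beside 10.1% of all genes (7.24% lower, 2.83% higher), and 12 of 26 in TertCi HFD (9 lower, 3 higher) beside 18.9% (12.5% lower, 6.44% higher). Of the 12 TertCi calls, 8 were above free RNA in both libraries of the group with the higher level, 2 (Timp1 and Mmp23) in 1 of them, and 2 (Mmp12 and Mmp28) in neither. Mmp12 was 82.3 and 92.5 CPM in progenitor-like nuclei of mCherry HFD beside 563 and 580 in free RNA, and Mmp28 was 9.71 and 7.32 CPM in TertCi HFD beside 84.5 and 87.1.

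Markers of other cell types moved in progenitor-like nuclei too. The 8 lipid-associated macrophage markers summed to 272 and 242 CPM in mCherry SD, 637 and 760 in mCherry HFD, 395 and 394 in Tert HFD, and 324 and 246 in TertCi HFD. All 8 were higher in mCherry HFD than in mCherry SD, and Trem2, Spp1 and Fabp5 were at 0 in mCherry SD. The 8 adipocyte markers summed to 211 and 573 CPM in mCherry SD, 51.3 and 82.6 in mCherry HFD, 177 and 234 in Tert HFD, and 258 and 220 in TertCi HFD. The part of these markers' cells in the progenitor calls was not tested.

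**Figure D3:**
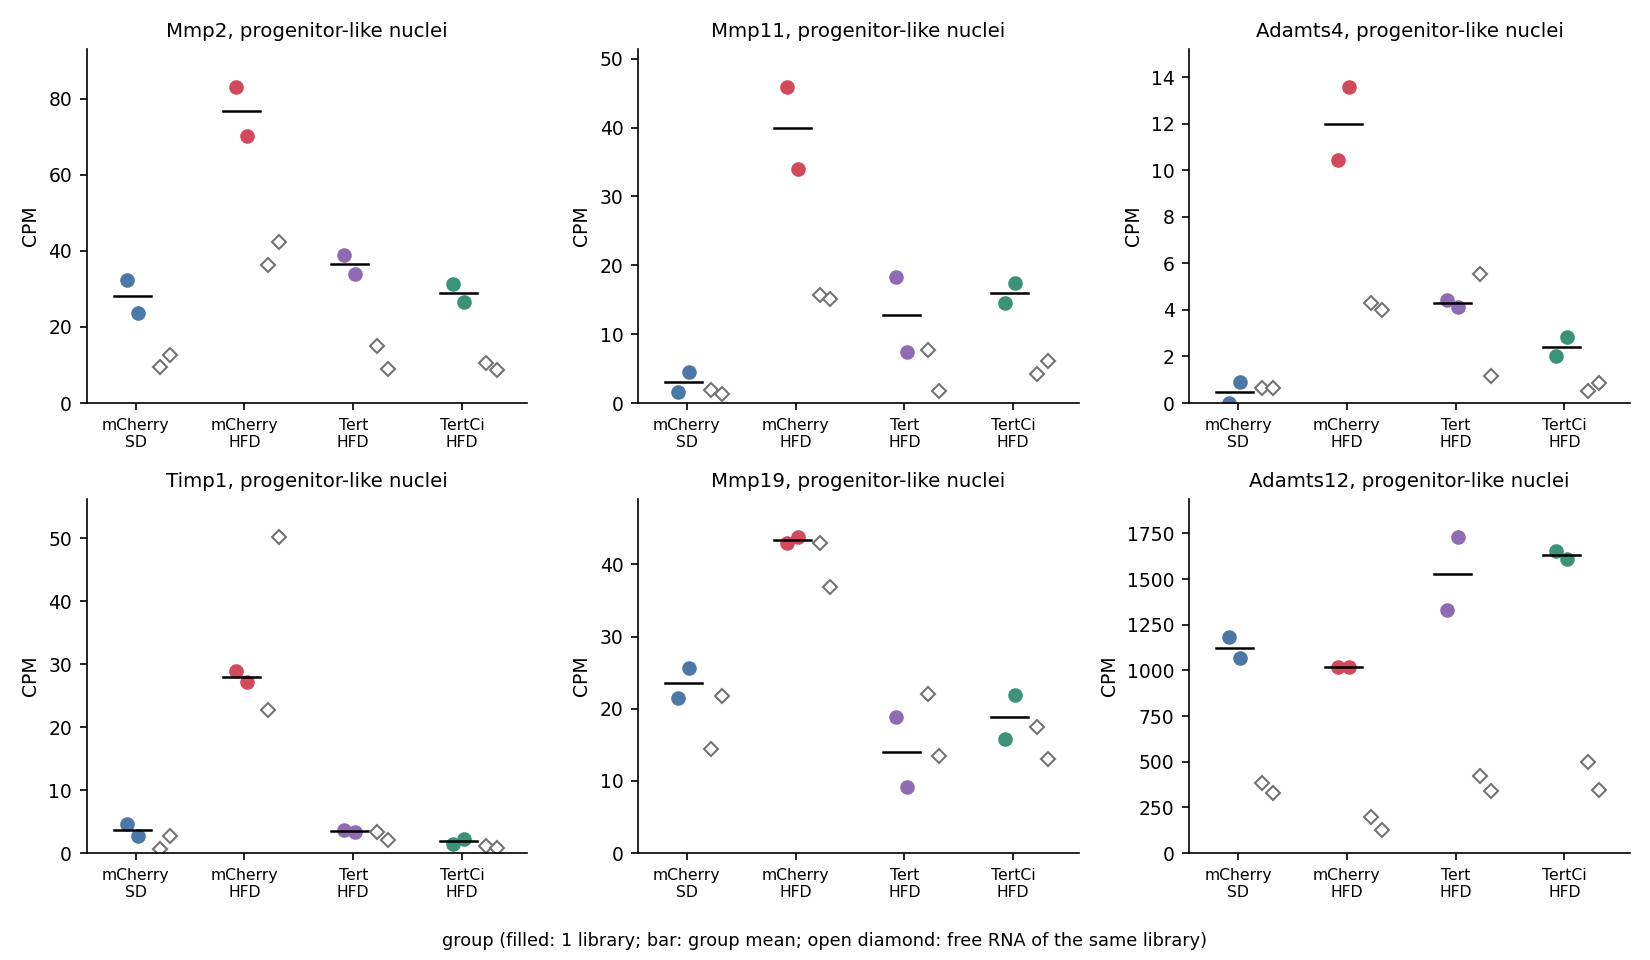
CPM by group in progenitor-like nuclei for 6 members called there, with 1 filled point a library, open diamonds for free RNA of the same libraries and a bar for the group mean. For Mmp2, Mmp11, Adamts4, Timp1 and Mmp19 both mCherry HFD libraries are the highest of the 8, and for Adamts12 they are the lowest.

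Adamts12, which cuts cartilage oligomeric matrix protein, was higher in both Tert HFD and TertCi HFD than in mCherry HFD. It was 1180 and 1065 CPM in mCherry SD, 1017 and 1016 in mCherry HFD, 1329 and 1729 in Tert HFD, and 1655 and 1608 in TertCi HFD. All 4 Tert HFD and TertCi HFD libraries were above all mCherry libraries. It was higher than in mCherry HFD by 0.77 ± 0.18 on the log2 scale in Tert HFD (adjusted p = 0.019) and by 0.89 ± 0.18 in TertCi HFD (adjusted p = 0.00521), and was not called for diet. Without Tert HFD rep136 the Adamts12 difference in Tert HFD was 0.50 and was not called. Free RNA held Adamts12 at 424 and 342 CPM in Tert HFD and 497 and 345 in TertCi HFD, below the nuclei. Timp3, an inhibitor bound to the matrix, was 111 and 87.0 CPM in mCherry HFD and 142 and 153 in TertCi HFD, a log2 difference of 0.76 ± 0.21 (adjusted p = 0.0249); it was 66.2 and 130 in mCherry SD and 138.1 and 110 in Tert HFD. Free RNA of TertCi HFD held Timp3 at 97.7 and 86.3 CPM, below the nuclei. Adamts1, an aggrecanase and versicanase, was 12.3 and 14.6 CPM in mCherry SD, 35.9 and 22.8 in mCherry HFD, 14.02 and 9.94 in Tert HFD, and 12.3 and 14.1 in TertCi HFD, and was lower by -1.13 ± 0.30 in Tert HFD (adjusted p = 0.0296) and -1.02 ± 0.29 in TertCi HFD (adjusted p = 0.0276). Without mCherry HFD rep128 these Adamts1 differences were -0.73 and -0.60, and neither was called. Free RNA of mCherry HFD held Adamts1 at 18.4 and 22.2 CPM, near the nuclei in rep129.

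Mmp19 in progenitor-like nuclei was 21.5 and 25.6 CPM in mCherry SD, 43.0 and 43.8 in mCherry HFD, 18.8 and 9.11 in Tert HFD, and 15.8 and 21.97 in TertCi HFD. It was lower by -1.35 ± 0.29 in Tert HFD (adjusted p = 0.0116) and -1.04 ± 0.28 in TertCi HFD (adjusted p = 0.0212). Free RNA of mCherry HFD held it at 42.9 and 36.8 CPM, near the nuclei. Mmp3, a stromelysin that activates other Mmp precursors, was 6.15 and 0 CPM in mCherry SD, 17.4 and 19.1 in mCherry HFD, 4.42 and 0 in Tert HFD, and 3.64 and 1.13 in TertCi HFD, with a log2 difference of -2.47 ± 0.68 in TertCi HFD (adjusted p = 0.0299) and free RNA at 9.502 and 12.2 CPM in mCherry HFD. Mmp23 was 50.3 and 25.9 CPM in mCherry HFD and 9.51 and 10.1 in TertCi HFD, with free RNA at 38.3 and 49.97 in mCherry HFD.

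The members that follow were not called in progenitor-like nuclei for diet, Tert or TertCi. Mmp14 was 100 and 47.5 CPM in mCherry SD, 89.1 and 118 in mCherry HFD, 71.3 and 70.4 in Tert HFD, and 59.9 and 47.3 in TertCi HFD. Adamts16, whose role in matrix is less well known, varied more: 182 and 122 CPM in mCherry SD, 309 and 391 in mCherry HFD, 252 and 49.7 in Tert HFD, and 102 and 80.6 in TertCi HFD. Progenitor cluster 6 held 54.8% of all Adamts16 UMIs (5057 of 9228). That cluster's share of the progenitor-like nuclei was 40.7% and 38.2% in mCherry SD, 30.03% and 27.3% in mCherry HFD, 36.9% and 20.0% in Tert HFD, and 28.5% and 25.1% in TertCi HFD. The part of these shares in the Adamts16 levels was not tested. Adamts2, which removes the amino-terminal propeptide of fibrillar procollagens, ranged from 503 to 820 CPM over the 8 libraries, Adamts5 from 797 to 1192, Adamts10 from 158 to 206, Adamts6 from 146.5 to 555, Adamts15 from 43.9 to 133 and Timp2 from 157 to 276. Adamts14, Adamts19 and Mmp27, also highest in these nuclei among the 6 classes, were not called either. Nor were Adamts3, which ranged from 38.9 to 130 CPM here, and Mmp16, both highest among the 6 classes in the mesothelial-led cluster. Adamts9, highest in endothelial-like nuclei, was not called here either.

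Progenitor-like nuclei too lay in different clusters by group. Cluster 29, led by Col8a1 and Meg3, held 61.4% of the progenitor-like nuclei of mCherry HFD, 5.85% of Tert HFD, 2.32% of TertCi HFD and 0 of 427 in mCherry SD, which allows up to 0.703%. Cluster 4, led by Lama2 and Thsd7a, held 43.6% of those of mCherry SD, 1.67% of mCherry HFD, 47.5% of Tert HFD and 54.0% of TertCi HFD. With all libraries pooled, Mmp2 (83.5 CPM), Mmp11 (58.6), Timp1 (34.8), Adamts4 (16.8) and Mmp23 (46.1) were highest in cluster 29 among all clusters. Adamts12 (1890 CPM) was highest in cluster 4. The other called members, Mmp3, Mmp12, Mmp19, Mmp28, Adamts1 and Timp3, were highest outside the progenitor-like clusters. The part of these cluster shares in the progenitor calls was not tested. Cluster 6, led by Opcml and Rgs6, was present in every library, and within it Mmp2 was 28.8 and 16.8 CPM in mCherry SD, 81.1 and 48.9 in mCherry HFD, 26.2 and 29.1 in Tert HFD, and 19.8 and 24.7 in TertCi HFD. Mmp11 within cluster 6 was 4.11 and 2.40 CPM in mCherry SD, 13.9 and 13.7 in mCherry HFD, 5.05 and 4.16 in Tert HFD, and 4.24 and 4.94 in TertCi HFD. Both mCherry HFD libraries were the highest for Mmp2 and Mmp11 inside this cluster. Mmp2 lay above the free RNA of those libraries (36.2 and 42.3 CPM), but Mmp11 lay below it in both (15.6 and 15.2 CPM). Timp1 there was 8.22 and 2.40 CPM in mCherry SD and 20.8 and 5.87 in mCherry HFD, which overlap and in mCherry HFD were below free RNA (22.7 and 50.1 CPM). Adamts12 was 905 and 1158 CPM in mCherry HFD and 1015 and 840 in mCherry SD beside 1378 and 1316 in Tert HFD and 1353 and 1136 in TertCi HFD. Without mCherry HFD rep128 the calls for diet, Tert and TertCi were 2, 1 and 1, beside 2.96%, 1.49% and 4.92% of all genes. With each library left out in turn, Mmp11 for diet and Timp1 for Tert and TertCi kept their calls in all 8 fits, and each of the other progenitor calls was lost in at least 1. The members' median log2 difference was 0.36 for diet beside 0.03 over all genes, -0.21 for Tert beside -0.02 and -0.37 for TertCi beside -0.04.

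In adipocyte-like nuclei 13 of 26 members were called for diet, 11 higher and 2 lower, beside 25.8% of all 15213 genes (15.6% higher, 10.2% lower). The 2 lower ones were Mmp28 (epilysin), the member with its highest level in this class, and the inhibitor Timp4. Timp4 was 34.6 and 45.6 CPM in mCherry SD, 12.97 and 9.33 in mCherry HFD, 16.6 and 21.1 in Tert HFD, and 31.3 and 31.4 in TertCi HFD. Both SD libraries lay above all others, and both mCherry HFD libraries below all others. Timp4 fell by 2.15 ± 0.30 on the log2 scale with HFD (adjusted p = 0.0012) and was higher in TertCi HFD than in mCherry HFD by 1.91 ± 0.30 (adjusted p = 0.0025), while Tert HFD was not called. Free RNA held Timp4 at 31.6 and 36.8 CPM in mCherry SD, 5.21 and 5.83 in mCherry HFD, 16.1 and 21.5 in Tert HFD, and 22.3 and 34.0 in TertCi HFD, in the same order of groups; in mCherry HFD the nuclei were above it in both libraries, and in Tert HFD rep136 and TertCi HFD rep140 they were below it.

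Mmp28 was 95.4 and 126 CPM in mCherry SD, 96.7 and 89.1 in mCherry HFD, 145 and 98.5 in Tert HFD, and 158 and 140 in TertCi HFD. The SD and mCherry HFD libraries overlapped in CPM, and the fit, which rescales libraries, gave -0.63 ± 0.18 for diet (adjusted p = 0.0259), 0.72 ± 0.18 for Tert (adjusted p = 0.0346) and 1.18 ± 0.18 for TertCi (adjusted p = 0.0023). Without adipocyte cluster 14 the differences were -0.02 for diet, 0.28 for Tert and 0.65 for TertCi, with adjusted p of 0.972, 0.522 and 0.0949, so all 3 calls were lost. In cluster 12, which every library has, Mmp28 was 82.6 and 159 CPM in mCherry SD, 122 and 162 in mCherry HFD, 161 and 140 in Tert HFD, and 164 and 149 in TertCi HFD, so the groups overlapped there. Mmp28 in free RNA was 66.6 and 57.9 CPM in mCherry SD, 8.58 and 10.7 in mCherry HFD, 52.7 and 67.9 in Tert HFD, and 84.5 and 87.1 in TertCi HFD, below the nuclei in each library.

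The 11 members that rose with HFD in adipocyte-like nuclei were Mmp2, Mmp3, Mmp11, Mmp12, Mmp14, Timp1, Timp2, Adamts2, Adamts6, Adamts14 and Adamts16. Only Adamts2 and Adamts6 among them were above free RNA in both mCherry HFD libraries. Adamts2 was 122 and 128.3 CPM in mCherry SD, 277 and 287 in mCherry HFD, 303 and 330 in Tert HFD, and 255 and 308 in TertCi HFD, so all HFD libraries were above both SD libraries; it rose by 0.78 ± 0.21 on the log2 scale (adjusted p = 0.0199). Adamts6 was 93.2 and 63.2 CPM in mCherry SD, 165 and 236 in mCherry HFD, 94.2 and 88.8 in Tert HFD, and 74.4 and 77.1 in TertCi HFD, with a rise of 0.95 ± 0.26 with HFD (adjusted p = 0.0228) and a difference of -0.89 ± 0.26 in TertCi HFD (adjusted p = 0.0316). The Adamts6 calls were lost without mCherry HFD rep129 (0.63 for diet, -0.56 for TertCi), and the diet call without mCherry SD rep146 (0.61). Mmp2 was 0.720 and 1.22 CPM in mCherry SD, 10.9 and 17.6 in mCherry HFD, 0.518 and 2.20 in Tert HFD, and 0.452 and 0.532 in TertCi HFD. Beside Mmp2, free RNA of the mCherry HFD libraries held 36.2 and 42.3 CPM, more than these nuclei. Timp1 was listed at 0 UMIs in both Tert HFD libraries, at least 20.98-fold below mCherry HFD when 3 UMIs over the group are taken as the floor.

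Markers of other cells moved with these members, those of progenitors among them. The summed level of the 8 progenitor markers in adipocyte-like nuclei was 261 and 268 CPM in mCherry SD, 1034 and 1966 in mCherry HFD, 273 and 326 in Tert HFD, and 216 and 162 in TertCi HFD. All 8 markers were higher in mCherry HFD than in mCherry SD, and none of them was at 0. The adipocyte-like nuclei of mCherry HFD numbered 250 and 86, and 59.8% of the 336 lay in cluster 14, whereas 67.8% of those of mCherry SD lay in cluster 11. Cluster 12 held 71.6% of those of TertCi HFD and 33.9% of those of Tert HFD. Cluster 13 held 65.1% of those of Tert HFD rep136 and 0.421% of those of rep134, so rep136 stood apart within its group. The median nucleus of cluster 13 had 1748 UMIs, while a barcode needed 987 UMIs to be kept in rep136 and 4642 in rep134. The part of this unequal cut-off was not tested. With cluster 14 left out, 17 members were tested, and 3 were called for diet, 0 for Tert and 3 for TertCi, beside 15.7%, 0.639% and 7.74% of all genes. The 8 lipid-associated macrophage markers summed to 688 and 963 CPM in mCherry SD and 1795 and 1461 in mCherry HFD. They summed to 1465 and 652 in Tert HFD and 861 and 892 in TertCi HFD, with 8 of 8 higher in mCherry HFD than in SD. In mCherry SD these sums were higher than those of macrophage-like nuclei. The list, which includes Lpl, is therefore not specific to macrophages in this class. The 8 endothelial markers summed to 38.9 and 50.8 CPM in mCherry SD and 78.6 and 162 in mCherry HFD, also with 8 of 8 higher. The part of RNA of these other cells in the calls was not tested.

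**Figure D4:**
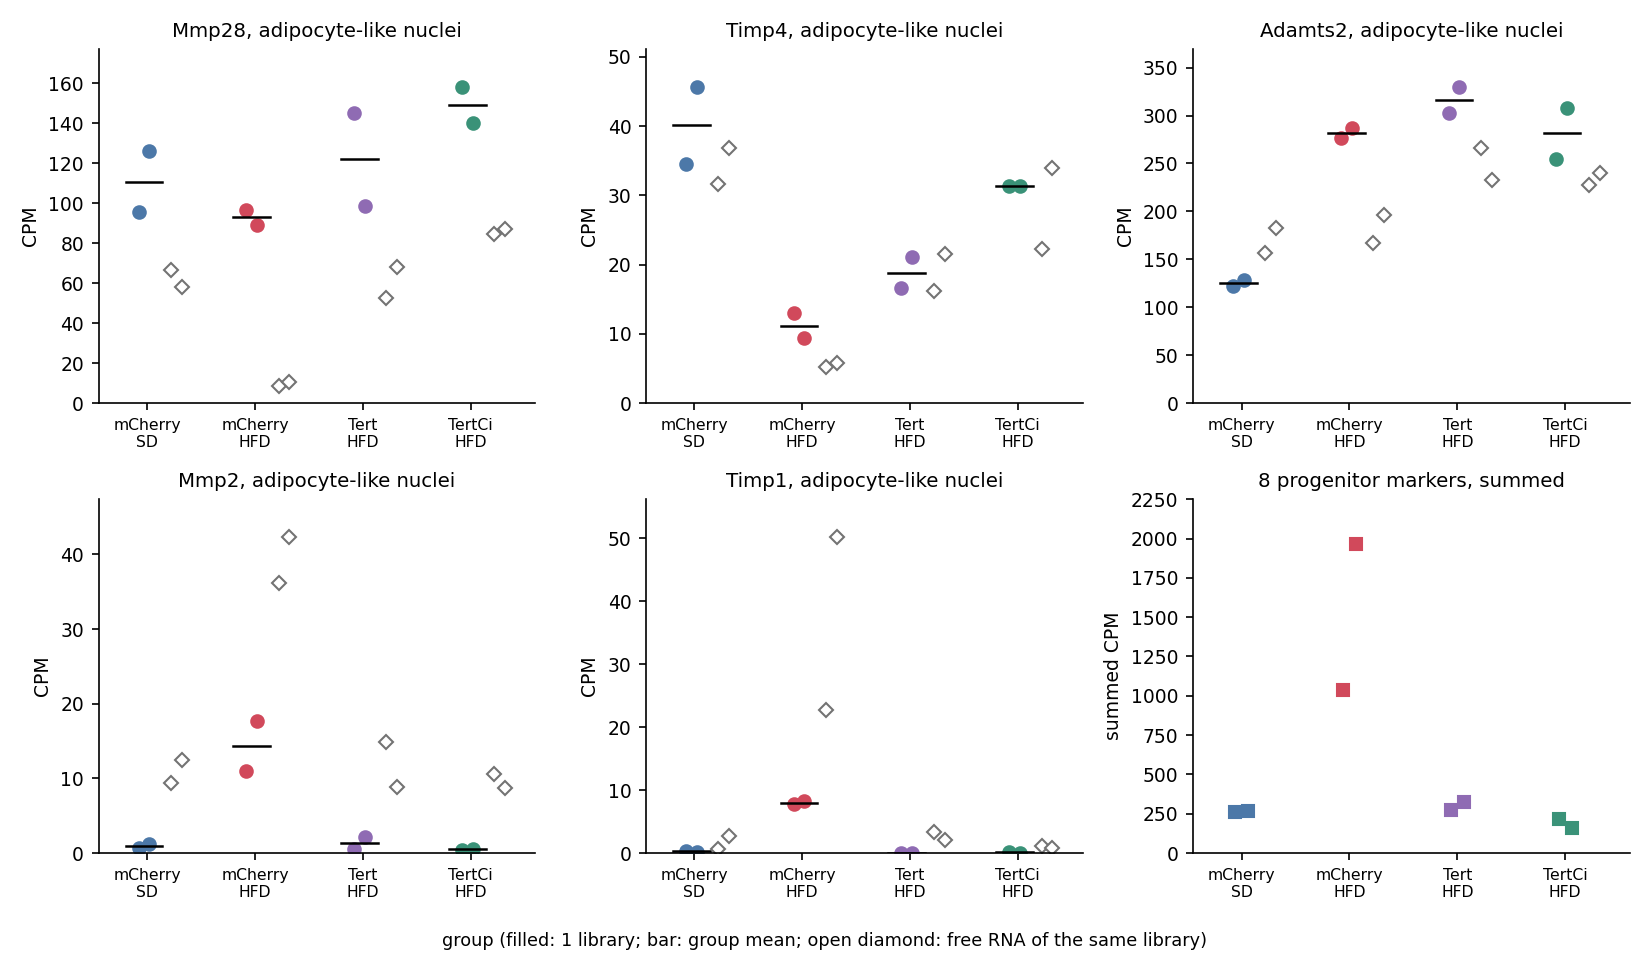
CPM by group in adipocyte-like nuclei for 5 members called there and the sum of the 8 progenitor markers (squares), with 1 filled point a library. Open diamonds for free RNA of the same libraries and bars for the group mean are drawn for the 5 members only. Timp4 is lowest in both mCherry HFD libraries, and Mmp2, Timp1 and the progenitor markers are highest in them, with Mmp2 and Timp1 below free RNA there.

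Against mCherry HFD, 9 of 26 members were called in adipocyte-like nuclei of Tert HFD, with Mmp28 higher and 8 lower, beside 9.2% of all genes (3.32% higher, 5.88% lower). In TertCi HFD 15 were called, with Mmp28, Timp4 and Adamts9 higher and 12 lower, beside 23.6% (9.68% higher, 13.9% lower). Adamts9 was 123 and 90.2 CPM in mCherry HFD and 135 and 152 in TertCi HFD (log2 0.92 ± 0.27, adjusted p = 0.0348), with free RNA of TertCi HFD at 137 and 133. The members lower in both were Mmp2, Mmp3, Mmp11, Mmp12, Adamts3, Adamts16, Timp1 and Timp2, and Mmp14, Adamts6, Adamts14 and Adamts19 were lower in TertCi HFD. In all 3 comparisons the same 2 mCherry HFD libraries were the control or the HFD side, so these counts are not independent of each other. Of the calls, 8 of 9 for Tert and 11 of 15 for TertCi were above free RNA in neither library of the group with the higher level. The members' median log2 difference was 1.03 for diet beside 0.05 over all genes, -0.78 for Tert beside -0.02 and -1.67 for TertCi beside -0.04. Adamts5, above free RNA in all 8 libraries, was 532 and 464 CPM in mCherry SD, 1022 and 1153 in mCherry HFD, 1024 and 1070 in Tert HFD, and 709 and 1124 in TertCi HFD. All HFD libraries were above both SD libraries, but the difference did not pass the threshold. Without mCherry HFD rep128 the calls were 7, 0 and 8, beside 6.73%, 0.954% and 6.56% of all genes. In all 8 fits with 1 library left out, the calls of Mmp2, Mmp12, Adamts16 and Timp4 held for diet, and those of Mmp2, Mmp12, Mmp28, Adamts16, Timp1, Timp2 and Timp4 for TertCi. Each of the other adipocyte calls, with all 9 for Tert, was lost in at least 1.

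Endothelial-like nuclei had too few SD nuclei (8 and 23) for a test of diet. There Adamts9, which cuts versican, was 175 and 612 CPM in mCherry SD, 354 and 434 in mCherry HFD, 678 and 349 in Tert HFD, and 573 and 320 in TertCi HFD, with overlap of all 4 groups. Of 15 members tested, 3 were called in Tert HFD, with Adamts5 and Adamts12 higher and Mmp12 lower, beside 11% of all 7342 genes (4.43% higher, 6.56% lower). In TertCi HFD 6 were called, with Adamts5, Adamts12, Adamts18, Mmp28 and Timp3 higher and Mmp12 lower, beside 18.4% (8.31% higher, 10.1% lower). Timp3 was 151 and 104 CPM in mCherry HFD and 350 and 158 in TertCi HFD (log2 1.11 ± 0.30, adjusted p = 0.0189), and Adamts18 was 12.7 and 9.17 in mCherry HFD and 62.0 and 20.8 in TertCi HFD (2.06 ± 0.57, adjusted p = 0.014). Timp3 and Adamts18 were above free RNA in both TertCi HFD libraries. The Timp3 call rests on single libraries: without TertCi HFD rep138 the log2 difference was 0.30 with an adjusted p of 0.68, and the call was also lost without either mCherry HFD library. With each library left out in turn, Mmp12 alone kept its calls in endothelial-like nuclei in every fit. Mmp12 there was 559 and 633 CPM in mCherry HFD, beside 563 and 580 in free RNA, and these nuclei also held the 8 macrophage markers at 1093 to 2340 CPM in sum. The 8 lipid-associated macrophage markers summed there to 559 and 399 CPM in mCherry SD, 3566 and 2781 in mCherry HFD, 893 and 589 in Tert HFD, and 669 and 589 in TertCi HFD, highest where Mmp12 was highest, and their part in the call was not tested. The other members called in endothelial-like nuclei, Adamts5, Adamts12 and Mmp28, were below free RNA in both libraries of the group with the higher level.

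In the mesothelial-led cluster 3 of 24 members were called for diet (2 higher, 1 lower) beside 14.9% of all 11419 genes (9.8% higher, 5.13% lower). In Tert HFD 1 was lower and 0 higher beside 5.34% (1.21% higher, 4.13% lower), and in TertCi HFD 4 were called (3 higher, 1 lower) beside 14.1% (5.49% higher, 8.64% lower). Adamts3, a procollagen N-protease that also helps activate the lymphatic growth factor Vegfc, was 102 and 117 CPM in mCherry SD, 82.1 and 48.6 in mCherry HFD, 113 and 118 in Tert HFD, and 109 and 99.8 in TertCi HFD. It fell by 0.96 ± 0.24 on the log2 scale with HFD (adjusted p = 0.00913) and was higher in TertCi HFD by 0.90 ± 0.25 (adjusted p = 0.02). Without mCherry HFD rep129 these Adamts3 differences were -0.59 (adjusted p = 0.348) and 0.51 (adjusted p = 0.467), and the TertCi call was lost without TertCi HFD rep138 too. Mmp12 and Timp1 rose there with HFD, Mmp12 was lower in Tert HFD and TertCi HFD, and Mmp28 and Timp4 were higher in TertCi HFD; Mmp12, for example, was 297 and 307 CPM in mCherry HFD, below free RNA. The 8 lipid-associated macrophage markers summed in this cluster to 201 and 218 CPM in mCherry SD, 1621 and 1679 in mCherry HFD, 554.0 and 581 in Tert HFD, and 258 and 318 in TertCi HFD, the same order of groups as for Mmp12, and their part in its calls was not tested. In the fits with 1 library left out, the calls of Mmp12 for diet and TertCi were the ones that held in all, and without Tert HFD rep134 the Tert difference was -2.76 with an adjusted p of 0.0618. Adamts3 was above free RNA in both libraries of the group with the higher level, and the other members called in this cluster were above it in neither. In the mural-led cluster 0 of 18 members were called in Tert HFD beside 4.65% of all 7916 genes. At an unadjusted p under 0.05 there were 2 members, beside 1289 of those genes. In TertCi HFD 1 member, Mmp28, was called there beside 9.87% of all genes. Mmp28 was 27.3 and 64.1 CPM in the mural-led cluster of TertCi HFD, below the 84.5 and 87.1 of free RNA, and its call was lost in 3 of 8 fits with 1 library left out (1.27 without rep140). Timp3, highest in that cluster, was 259 and 464 CPM in mCherry SD, 503 and 522 in mCherry HFD, 693 and 588 in Tert HFD, and 654 and 292 in TertCi HFD. Both mCherry HFD libraries lay above both SD libraries and below both Tert HFD libraries, and the TertCi HFD libraries lay on either side of them; mCherry SD rep144 had 19 nuclei of this cluster, too few for a test of diet, and Timp3 was not called in Tert HFD or TertCi HFD.

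**Figure D5:**
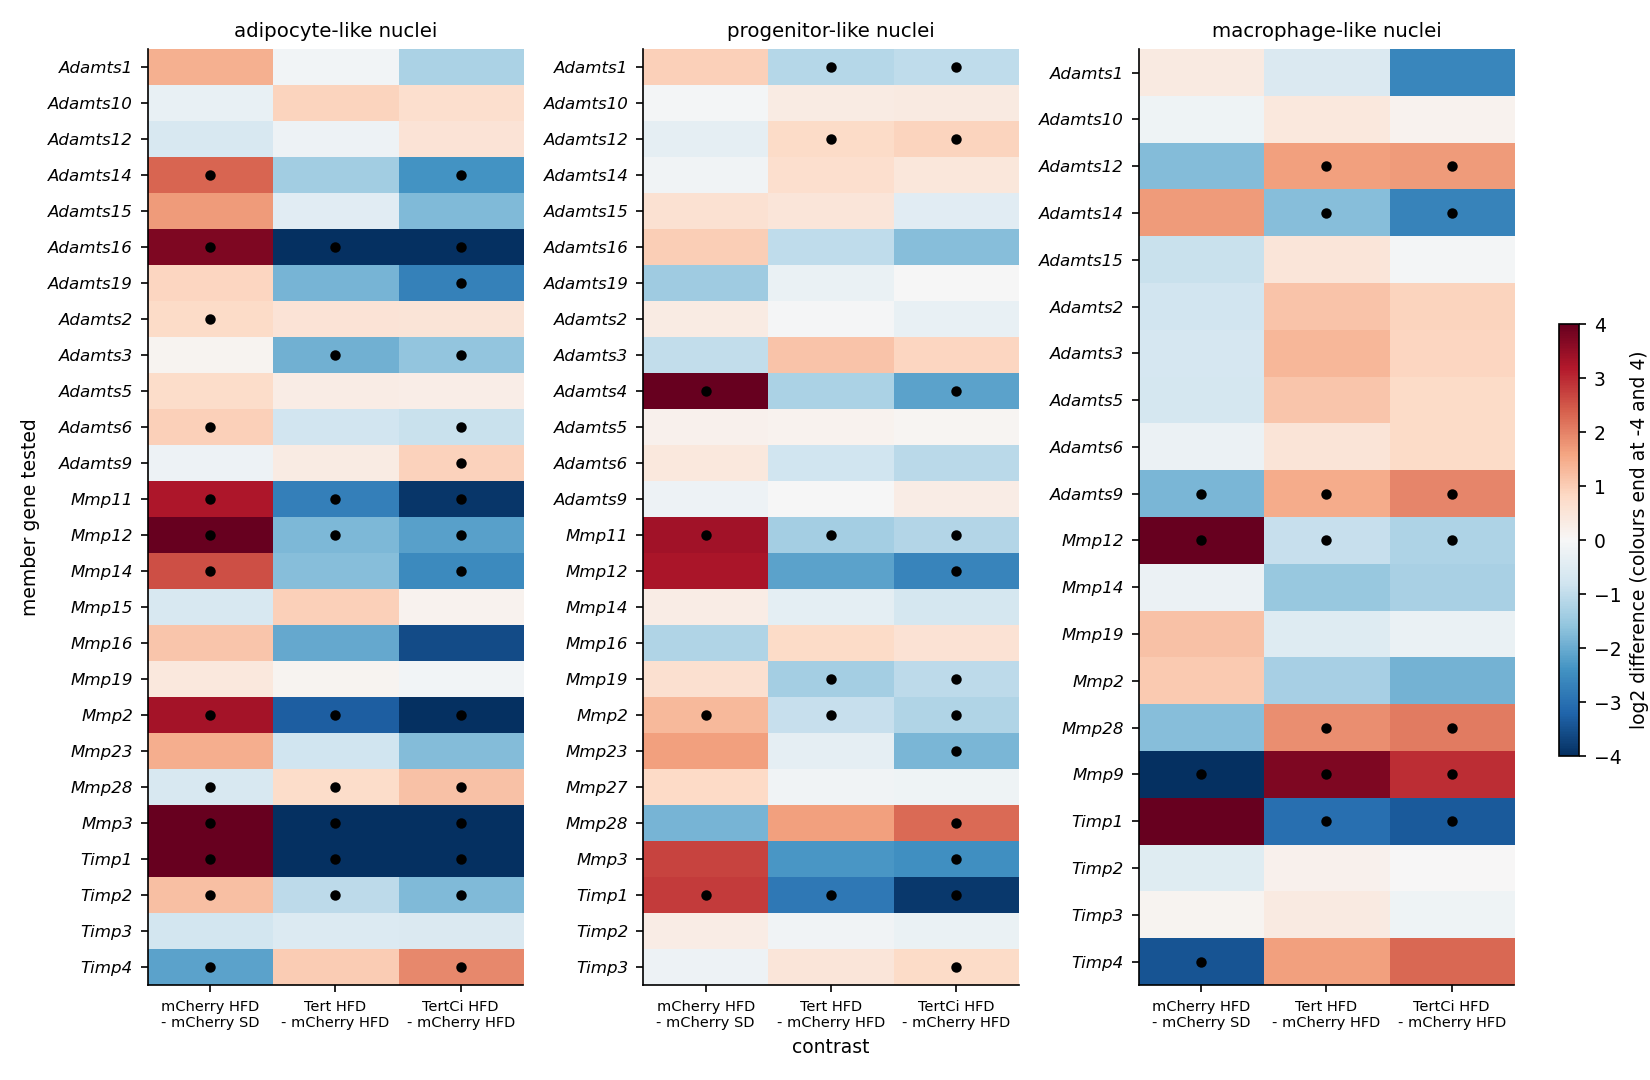
Fitted log2 difference (colour, which ends at -4 and 4) of each member tested (rows) in adipocyte-like, progenitor-like and macrophage-like nuclei, for diet (mCherry HFD minus mCherry SD) and for Tert HFD and TertCi HFD minus mCherry HFD (columns). A dot marks an adjusted p under 0.05, and Mmp12 in macrophage-like nuclei stands at 4.26, -0.93 and -1.22 in the 3 columns.

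Tert HFD and TertCi HFD were also compared with each other. In edgeR's test 0 members were called in progenitor-like, macrophage-like or adipocyte-like nuclei or over all nuclei, beside 0% of all genes in each. At an unadjusted p under 0.05 there were 2 of 26 in progenitor-like nuclei, beside 546 of all 12022 genes. There were 0 of 20 in macrophage-like nuclei beside 530 of 13569, and 4 of 26 in adipocyte-like nuclei beside 917 of 15213. Over all nuclei there were 9 of 37, beside 1879 of 21100. DESeq2 called 0 members, but the share of all genes that it called was not counted. In endothelial-like nuclei 0 of 15 members were called between these groups beside 0.0272% of all genes. At an unadjusted p under 0.05 there were 2 members there, beside 477 of 7342 genes. In the mesothelial-led cluster 1 of 24, Mmp12, was called as higher in Tert HFD (log2 2.15 ± 0.34, adjusted p = 0.0314) beside 0.035% of all genes; without Tert HFD rep134 the difference was 0.94 and was not called. Mmp12 in macrophage-like nuclei was 344 and 368 CPM in Tert HFD and 288 and 292 in TertCi HFD. These counts do not show that the 2 groups were alike.

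UMIs were also summed over all nuclei, where fewer nuclei of a type and less RNA per nucleus cannot be told apart. For diet 19 of 37 members were called (10 higher, 9 lower) beside 40.6% of all 21100 genes (22.2% higher, 18.4% lower). In Tert HFD 12 were called (9 higher, 3 lower) beside 21.7% (10.9% higher, 10.7% lower). In TertCi HFD 20 were called (10 higher, 10 lower) beside 35.6% (16.1% higher, 19.4% lower). Here Mmp28 was 52.4 and 82.4 CPM in mCherry SD, 12.97 and 12.6 in mCherry HFD, 65.9 and 50.6 in Tert HFD, and 98.5 and 85.9 in TertCi HFD, a fall of 2.84 ± 0.18 on the log2 scale with HFD (adjusted p = 5.66e-05). In the same libraries 23.1% and 27.5% of the nuclei were adipocyte-like in mCherry SD and 3.36% and 2.99% in mCherry HFD. Timp4 fell by 3.55 ± 0.23 with HFD (adjusted p = 6.38e-05) and Adamts9 by 1.40 ± 0.23 (adjusted p = 0.00306). Mmp13, a collagenase with 122 UMIs in all, Mmp15, Mmp16, Mmp24, Mmp27 and Adamts10 were called only in these sums, and each of those calls was lost in at least 1 fit with 1 library left out. The sums also include clusters found in 1 mouse. Cluster 26, with 425 nuclei, came only from mCherry SD rep146 and held 399 of the 1678 Mmp16 UMIs. The 227 epithelial-like nuclei came only from mCherry HFD rep128.

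Other genes of the pathway were read from a list of 55 ADAM proteases, ADAMTS-like proteins, plasminogen system genes, activators, clearance receptors and substrates. In progenitor-like nuclei 8 of 45 tested rose and 2 fell with HFD, beside 7.29% and 3.85% of all genes. In Tert HFD 4 were higher and 5 lower, beside 2.83% and 7.24%, and in TertCi HFD 2 were higher and 9 lower, beside 6.44% and 12.5%. Col3a1, a fibrillar collagen, rose by 1.41 ± 0.21 on the log2 scale with HFD (adjusted p = 0.00173) and was lower by -0.71 ± 0.20 in Tert HFD (adjusted p = 0.0407) and -1.22 ± 0.20 in TertCi HFD (adjusted p = 0.00174). The collagens Col1a1 and Col1a2 and Serping1, an inhibitor of serine proteases, were called in the same directions as Col3a1 in the 3 comparisons. Adam12 rose with HFD (log2 0.72 ± 0.19, adjusted p = 0.0287), Adam33 fell (-1.27 ± 0.26, adjusted p = 0.00868), and the proprotein convertase Pcsk6 and the tolloid-like protease Tll2 were higher in Tert HFD and TertCi HFD. Col1a1 is also in the progenitor marker list.

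In macrophage-like nuclei 8 of 43 genes of that list rose and 7 fell with HFD, beside 11.9% and 9.69% of all genes. In Tert HFD 4 were higher and 7 lower, beside 7.54% and 11.5%, and in TertCi HFD 6 were higher and 7 lower, beside 10.5% and 15.2%. Adam8, a membrane protease of leukocytes, was 2.91 and 10.2 CPM in mCherry SD, 177 and 130 in mCherry HFD, 56.4 and 38.5 in Tert HFD, and 28.7 and 30.8 in TertCi HFD. It rose by 4.15 ± 0.37 on the log2 scale with HFD (adjusted p = 6.39e-06) and was lower by -1.53 ± 0.22 in Tert HFD (adjusted p = 0.000585) and -2.24 ± 0.23 in TertCi HFD (adjusted p = 3.67e-05). The clearance receptor Lrp1 (diet 1.86 ± 0.15, adjusted p = 3.67e-06) and the plasminogen activator Plau (diet 1.95 ± 0.33, adjusted p = 0.00101) were called in the same directions, whereas Adam19 and Fn1 fell with HFD and were higher in both Tert HFD and TertCi HFD. In adipocyte-like nuclei 22 of 45 rose and 1 fell with HFD, beside 15.6% and 10.2% of all genes. In Tert HFD 2 were higher and 13 lower, beside 3.32% and 5.88%, and in TertCi HFD 1 was higher and 20 lower, beside 9.68% and 13.9%. Pcsk6 was the 1 that fell there, and the risers included Col1a1, Col1a2, Col3a1 and Dcn, of which Col1a1 and Dcn are progenitor markers. Tert HFD and TertCi HFD differed from each other in 0 of these genes in edgeR's test in the 3 classes, beside 0% of all genes in each.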

How the data were processed

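Nuclei of snap-frozen visceral fat from 8 mice were sorted with a DNA dye and their RNA was counted by 3′ droplet sequencing, per the labels' protocols. The files hold raw UMI counts per gene and barcode as the authors deposited them, unfiltered for nuclei. The file headers name Cell Ranger 7.1.0, whereas the submitters' processing notes list Cell Ranger 5.0.1, bcl2fastq 2.20.0 and mm39; which one made the files is not given in the sources used here. The labels say that tissue was processed in batches of 2 mice in random order, without saying which, so batch could not be a term in any fit.

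A barcode was kept if it reached 500 UMIs (or 0.1 of the 99th percentile among its library's 5000 largest barcodes, if greater), 300 genes and no more than 5% of mitochondrial UMIs. The highest doublet scores (Scrublet in scanpy 1.11.5) were removed at 0.8% per 1000 nuclei, because the caller's own threshold marked 0% to 0.199%; 1.59% to 6.35% of nuclei were removed. Nuclei were scaled to 10000 UMIs, log-transformed and clustered (2000 variable genes without the members, 30 components, 15 neighbours, Leiden resolution 1.0). A cluster was named from marker lists when at least 3 markers were at least 2-fold above the 25th percentile of clusters, and was called mixed when an unrelated lineage came near.

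UMIs were summed per library and class, leaving out libraries with under 20 nuclei, and tested with edgeR 4.0.16 (quasi-likelihood test, TMM, filterByExpr) with 1 fit a class over the 4 groups. P-values were adjusted by Benjamini-Hochberg over all genes tested, called at 0.05, and the SE is the log2 difference over the square root of F. The code was tested on simulated data. Members called in any comparison or with at least 200 UMIs are named, and up to 8 called genes per class of the 55 other pathway genes. The members, the lists and the tests were chosen with earlier results of these data known. Alternatives were DESeq2 1.42.0, other size factors, no filter, 1000 UMIs, a finer clustering, the members kept in clustering and each library left out; joining mixed clusters, leaving out adipocyte cluster 14 and testing the endothelial-like, mesothelial-led and mural-led nuclei were added after seeing the data.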

Additional observations from a re-analysis of the deposited data

Results flagged for a closer look

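In the mesothelial-led cluster Mmp12 differed between Tert HFD and TertCi HFD, by 2.15 ± 0.34 on the log2 scale in edgeR's quasi-likelihood test (adjusted p = 0.0314), where 0.035% of all genes were called. Its level was 112 and 43.1 CPM in Tert HFD and 21.7 and 15.8 CPM in TertCi HFD, and both Tert HFD mice were above both TertCi HFD mice. The cluster held only 48 nuclei with 92874 UMIs of all genes in Tert HFD rep136. In TertCi HFD rep140 it held 70 nuclei with 380680 UMIs, so the Mmp12 levels of these 2 libraries rest on few UMIs. Free RNA of the same libraries held Mmp12 at 159 and 190 CPM in Tert HFD and 86.1 and 94.1 CPM in TertCi HFD, above the nuclei in each library. The 8 macrophage markers summed to 829 to 1053 CPM in the cluster in Tert HFD and to 464 to 641 CPM in TertCi HFD, and their part in the difference was not tested. The 8 lipid-associated macrophage markers summed there to 554.0 and 581 CPM in Tert HFD and 258 and 318 CPM in TertCi HFD. With each library left out in turn the log2 difference was 0.94 (without Tert HFD rep134) to 2.47, and the call held in 7 of 8 fits.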

How the results depend on the processing

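Counts of called members are given for diet, Tert and TertCi in turn. The share of all genes called was counted only for the fits without mCherry HFD rep128 and without adipocyte cluster 14. Under the other alternatives a change in the members' count cannot be told apart from a change in calls over all genes. No filter on low counts gave 14 for Tert in adipocyte-like, 10 for diet and 12 for Tert in progenitor-like, 7 for diet and 12 for TertCi in macrophage-like nuclei, 19 for Tert over all nuclei and 3 between Tert HFD and TertCi HFD. DESeq2 gave 5 for Tert in adipocyte-like and 3 for Tert and 6 for TertCi in progenitor-like nuclei. A minimum of 1000 UMIs gave 5, 0 and 5 in adipocyte-like nuclei, 10 for diet in progenitor-like and 11 for diet in macrophage-like nuclei. This minimum was looser than the main cut-off in every library but Tert HFD rep136. It kept 18125 nuclei of mCherry HFD rep128, where the main cut-off kept 7433. Joining mixed clusters gave 8 for diet and 1 for Tert in adipocyte-like and 10 for diet in progenitor-like nuclei. Without adipocyte cluster 14 the counts were 3, 0 and 3, beside 15.7%, 0.639% and 7.74% of all genes. Leaving out each library in turn gave 4 to 15, 0 to 10 and 7 to 18 in adipocyte-like, 1 to 8, 1 to 9 and 1 to 16 in progenitor-like, 1 to 7, 1 to 7 and 1 to 9 in macrophage-like nuclei, 9 to 21, 4 to 13 and 8 to 21 over all nuclei, and 0 between Tert HFD and TertCi HFD in adipocyte-like, progenitor-like and macrophage-like nuclei. Many of the lowest counts came without mCherry HFD rep128, which enters every comparison but the one of Tert HFD with TertCi HFD. Signs turned in adipocyte-like nuclei for Adamts14 (diet -0.14, TertCi 0.11) and Adamts16 (diet -0.56) at 1000 UMIs and for Adamts3 (Tert 0.33, TertCi 0.22) and Mmp14 (diet -0.25) with mixed clusters joined, and in macrophage-like nuclei for Mmp9 (TertCi -4.17) without TertCi HFD rep138, where the other libraries left out gave up to 3.50; the cause was not tested. Of the values of single members under all alternatives, 1526 kept direction and call, 391 kept direction only and 7 reversed. Mmp12 in macrophage-like nuclei kept its diet and TertCi calls under all 15 alternatives run, as did Timp1 in progenitor-like nuclei for Tert and TertCi, and Timp4 in adipocyte-like nuclei for diet and TertCi under all 16. Mmp12 for Tert was lost at 1000 UMIs (-0.75). No paired analysis was possible because the groups share no replicate numbers. Depth limits the sparse members: calls that rest on few UMIs, such as those of Mmp9, have wide errors.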

Other observations

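Some members had many of their UMIs in small clusters outside the comparisons. Mmp7 (matrilysin) had 83.7% of its 153 UMIs in a cluster of 107 nuclei led by Dcdc2a, Adcy8 and Pkhd1, of which 38 came from mCherry SD rep146 and 67 from mCherry HFD rep128. Mmp16, a membrane-bound protease, had 399 of its 1678 UMIs (23.8%) in a cluster of 425 nuclei led by genes that include the smooth muscle genes Myh11 and Actg2, all from mCherry SD rep146. Adamts20, a versicanase, had 69 of its 277 UMIs in a cluster of 29 nuclei with genes of cilia such as Dnah12 and Cfap44, 27 of them from mCherry HFD rep128. Mmp25, a membrane-bound protease of leukocytes, had 21 of its 77 UMIs in the cluster led by the dendritic cell genes Clec9a and Flt3. Mmp13 had 40 of its 122 UMIs in macrophage cluster 30 and Mmp9 65 of its 202 in macrophage cluster 21. Since the first 3 clusters came mostly from 1 or 2 mice, no comparison between groups was made in them.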
